A study of Mus musculus with 11 samples.

Results

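The genes described here encode the proteins of the mitochondrial ribosome. They were chosen by name: every protein-coding gene of the count table whose GENCODE M21 symbol starts with Mrpl or Mrps followed by a digit, which gave 78 genes, 49 with a large-subunit symbol (Mrpl) and 29 with a small-subunit symbol (Mrps), of the 54232 genes in the table. All 78 protein-coding genes with such a symbol in the annotation were present, and 5 processed pseudogenes with family symbols were left out. The RNA came from pieces of 11 pancreatic tumours of C57BL/6 mice, each grown after injection of 1000 TB32048 cells, a mouse pancreatic carcinoma line, into the pancreas in DMEM mixed with Matrigel. The 6 KO hosts carried loxP-flanked Pkn2 alleles, with which the tamoxifen-activated, ubiquitously expressed RosaCreERT2 recombinase deletes the kinase PKN2 in host cells. The 5 WT hosts carried wild-type Pkn2 alleles. All hosts were female littermates of like age that carried RosaCreERT2 and received tamoxifen, and the injected carcinoma cells kept intact Pkn2 in every tumour, so that the comparison asks what the loss of stromal PKN2 does to the tumour as a whole.

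Mitochondria carry their own ribosome, which translates the few proteins encoded in mitochondrial DNA, all of them membrane subunits of the respiratory chain and the ATP synthase. Its RNA comes from the mitochondrial genome, while every one of its proteins is encoded in the nucleus, made in the cytosol and imported. Some of these proteins descend from the bacterial ribosome and others were added during the evolution of mitochondria. A few family symbols mislead: Mrps30 and Mrps18a encode proteins that structures place in the large subunit, and Mrps36 is now regarded as a subunit of the alpha-ketoglutarate dehydrogenase complex.

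Promoters of the family were read for short motifs known from genes of mitochondrial biogenesis, and 5 are shown because they belong to members on which the results turn or that share a start region with another gene. RefSeq gave 75 promoter windows for 69 of the 78 genes (build GRCm38.p6, 250 bases before to 50 after the start, 5′ to 3′ on the gene's strand). Capitals mark a match on either strand to GCATGCGC (the core bound by NRF1), CCGGAAG (the core bound by ETS factors such as GABPA), AAGATGGCG (the core bound by YY1), GGGCGG (the Sp1 core) or TATAAA (the TATA box), none of which contains another.
Mrpl34 (the member with the largest fold change, chr8:71464676-71464975, plus strand): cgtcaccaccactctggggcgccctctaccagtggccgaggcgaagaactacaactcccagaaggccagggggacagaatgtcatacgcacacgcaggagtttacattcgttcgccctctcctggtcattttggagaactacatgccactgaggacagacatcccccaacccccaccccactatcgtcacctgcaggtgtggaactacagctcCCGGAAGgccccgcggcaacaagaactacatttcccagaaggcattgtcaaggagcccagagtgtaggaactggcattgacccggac
Mrpl43 (whose start lies near that of the mitochondrial helicase gene Twnk, chr19:45006393-45006692, minus strand): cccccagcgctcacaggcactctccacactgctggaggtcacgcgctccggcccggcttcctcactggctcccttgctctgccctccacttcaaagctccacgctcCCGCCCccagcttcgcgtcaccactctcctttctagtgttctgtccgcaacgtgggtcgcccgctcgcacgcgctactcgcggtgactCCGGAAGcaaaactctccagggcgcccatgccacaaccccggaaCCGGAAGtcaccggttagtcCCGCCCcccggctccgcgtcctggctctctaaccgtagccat
Mrpl39 (the member with the largest p, chr16:84735195-84735494, minus strand): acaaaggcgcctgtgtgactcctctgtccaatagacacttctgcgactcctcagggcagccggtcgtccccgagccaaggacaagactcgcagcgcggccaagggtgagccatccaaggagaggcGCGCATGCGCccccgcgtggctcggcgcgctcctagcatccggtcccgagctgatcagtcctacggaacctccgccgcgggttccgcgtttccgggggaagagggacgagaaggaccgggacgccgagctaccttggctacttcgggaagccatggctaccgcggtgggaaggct
Mrps11 (which shares its start region with Mrpl46, chr7:78782881-78783180, plus strand): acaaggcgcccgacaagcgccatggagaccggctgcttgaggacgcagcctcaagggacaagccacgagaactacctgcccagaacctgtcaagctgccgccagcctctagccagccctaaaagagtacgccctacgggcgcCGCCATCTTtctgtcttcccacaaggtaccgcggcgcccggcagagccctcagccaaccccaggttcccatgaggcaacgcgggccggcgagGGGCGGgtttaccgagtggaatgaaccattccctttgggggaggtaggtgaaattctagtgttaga
Mrps12 (which shares its start region with the mitochondrial seryl-tRNA synthetase gene Sars2, chr7:28741772-28742071, minus strand): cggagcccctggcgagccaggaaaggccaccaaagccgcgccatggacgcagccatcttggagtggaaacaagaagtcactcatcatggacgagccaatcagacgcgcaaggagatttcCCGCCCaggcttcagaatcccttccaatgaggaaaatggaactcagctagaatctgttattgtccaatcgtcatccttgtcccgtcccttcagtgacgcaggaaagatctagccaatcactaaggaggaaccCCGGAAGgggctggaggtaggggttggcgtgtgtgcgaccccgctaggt

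The ETS core was present in 26 of the 75 windows (34.7%), against 8.86% of all 32851 promoter windows in the table. It was in 15 of 48 large-subunit windows and in 11 of 27 small-subunit windows. The NRF1 core was in 8 of the 75 (10.7%) against 2.71% of all, 7 of them in large-subunit genes, and the YY1 core was likewise in 8 (10.7%) against 1.4%. The Sp1 core was in 52% of the family's windows and 35.7% of all, and the TATA box in 6.67% and 13.6%. The background holds the windows of all 27025 genes with one, tested or not, and was not matched to the members. These are matches of letters only, and promoters were not tested here. Many members also sit head to head with a neighbour: 33 of the 78 (42.3%) had the annotated start of a protein-coding gene on the opposite strand within 1000 bases of their own, against 2092 of 14139 tested protein-coding genes (14.8%). The pair Mrpl46 and Mrps11 joins both subunits.

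The libraries differed in ways that bear on these genes. They held 16294128 to 31121422 counts in genes, with the lowest total in WT B. The rank correlation across genes between a gene's exon length and its level in a tumour, relative to its mean over the 11 tumours, was -0.50 in WT A, -0.45 in WT B and -0.17 in WT C, so that short genes were relatively high there, and 0.10 to 0.37 in WT D, WT E and the KO tumours. Reads on ribosomal RNA made up 6.39% of the counts in WT B, 1.31% in WT A, 1.40% in WT C and 0.24% to 0.76% in the others. This share counts the genes Gm42418, mt-Rnr1 and mt-Rnr2, so that part of it is the RNA of the mitochondrial ribosome itself. Pkn2 itself lay at 80.0 to 108 CPM (counts scaled to library size) in KO and 62.8 to 138 in WT tumours, so that whole-gene counts in tumours whose carcinoma cells express Pkn2 do not check the labels.

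The family was measured well in all but a single gene. The 77 tested members had 229 to 4819 counts in any tumour. Mrpl53 (chr6:83109040-83109939) had 0 counts in all 11 tumours, which by counting error alone allows up to 0.25 CPM in the shallowest library. However, 695 of its 790 exon bases lie in exons of another gene, Gm42688, on the same strand. With this overlap the 0 sets no upper bound on the expression of Mrpl53. 7 other members share exon bases with a gene on their own strand, from 2.15% of the exon length of Mrpl51 to 37% of that of Mrps34, which overlaps Nme3, and the counts of these members are less certain.

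Levels per exon length spanned a wide range. The mean over the 11 tumours ran from 3.75 to 121 CPM per kilobase of exon (RPKM), with a median of 19.9 over the 77. Mrps21, a short small-subunit protein, stood highest at 78.5 ± 13.1 RPKM (mean ± SD) over the 6 KO tumours and 171 ± 109 over the 5 WT tumours. Mrpl34 followed at 48.1 ± 3.58 RPKM in KO and 133 ± 107 in WT, and Mrpl12 at 45.0 ± 5.62 and 92.3 ± 43.4. Mrps21 was above both in all 11 tumours, while Mrpl34 was above Mrpl12 in 9 of 11 and their SDs overlap in both groups. The lowest tested were Mrpl33 at 3.75, Mrpl48 at 4.66 and Mrps35 at 4.98. The order depends on which exons are counted as the gene's length: with the length of the principal transcript alone, Mrpl33, whose annotated exons sum to 7326 bases but whose principal transcript has 478, had 57.5 CPM per kilobase and moved from place 77 to place 18, and Mrpl13 moved from place 51 to place 6.

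The messages of the mitochondrial ribosome were lower on average in KO tumours, and the difference was made by 3 of the 5 WT tumours. The summed level of the 49 large-subunit genes was 1904 CPM in the lowest, 1997 at the median and 2167 in the highest KO tumour. In the WT tumours it was 4038 in A, 5405 in B, 3058 in C, 2199 in D and 2014 in E. WT A, B and C lay above every KO tumour, WT D just above the highest, and WT E inside the KO range. The 29 small-subunit genes summed to 898 to 1003 CPM in KO tumours, and to 1810, 2673, 1450, 1034 and 961 in WT A to E, in the same order of tumours. The means were 2020 ± 101 CPM in KO and 3343 ± 1405 in WT for the large subunit, and 951 ± 42.3 and 1586 ± 697 for the small subunit (SD, n = 6 and 5). The subunits stayed in proportion: the ratio of the large to the small sum was 2.12 ± 0.037 in KO and 2.12 ± 0.075 in WT tumours (SD). In bulk tumour RNA, fewer cells of a type rich in these messages and less message per cell cannot be told apart.

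**Figure D1:**
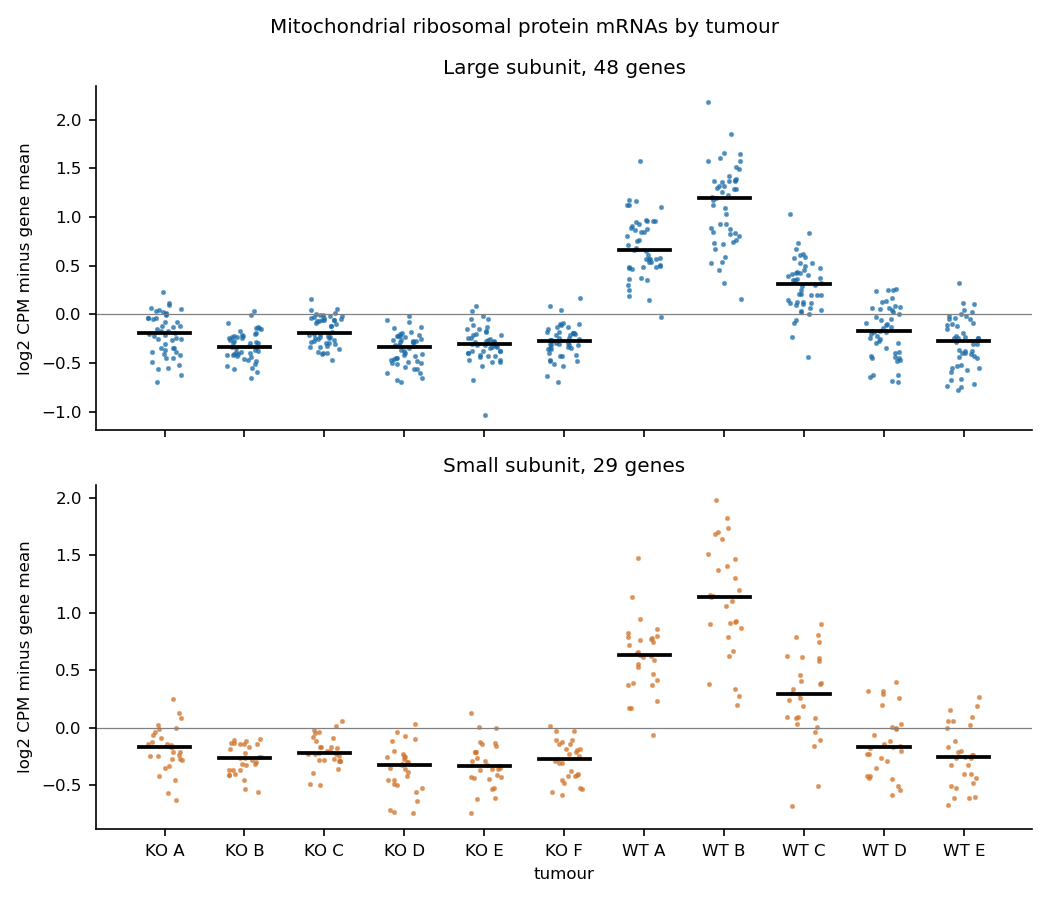
Each point is a member's log2 CPM in a tumour (x axis) minus that gene's mean over the 11 tumours (y axis, log2 units), with the large subunit above and the small subunit below and a black bar at the median. WT A, B and C sit high with large-subunit medians of 0.66, 1.2 and 0.31, while WT D, WT E and the 6 KO tumours lie between -0.34 and -0.17.

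Gene by gene the picture was the same. In 76 of the 77 tested members WT A and WT B both lay above every KO tumour, and in 66 WT C did so too. WT B held the highest value of 67 members and WT A that of 8. By contrast WT D was above every KO tumour for 28 members and below the KO median for 21, and WT E was above every KO tumour for 19 and below the KO median for 37.

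All 77 tested members had a negative log2 fold change (KO minus WT) in the edgeR quasi-likelihood fit, from -1.47 to -0.18, while 52% of all 16536 tested genes did. The median log2 fold change was -0.71 over the 48 tested large-subunit members and -0.71 over the 29 small-subunit members, beside -0.03 over all tested genes. At an unadjusted p under 0.05, 40 large-subunit and 24 small-subunit members were lower and none was higher, beside 15.5% of all tested genes lower and 8.57% higher. After Benjamini-Hochberg adjustment over all tested genes no member passed 0.05 in edgeR, where 3 genes in all (0.0181%) did. At an adjusted p under 0.1 there were 15 large-subunit and 8 small-subunit members, beside 3.33% of tested genes lower at that threshold. That count of 23 was not stable: it was 0 when any KO tumour, WT A or WT B was left out, 12 without WT C, 58 without WT D and 66 without WT E, and 6 with no filter on low counts. The count over all tested genes moved as well. It was 0 to 17 where no member passed, 264 of 16778 without WT C and 2026 of 16830 without WT D. Without WT E it was 2406 of 16731, and with no filter on low counts 147 of 29689. DESeq2, run on the same counts, put 20 large-subunit and 10 small-subunit members under an adjusted p of 0.05, beside 6.03% of tested genes. In 12 large-subunit and 5 small-subunit members the KO values lay wholly below the WT values, beside 2.01% of tested genes.

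**Figure D2:**
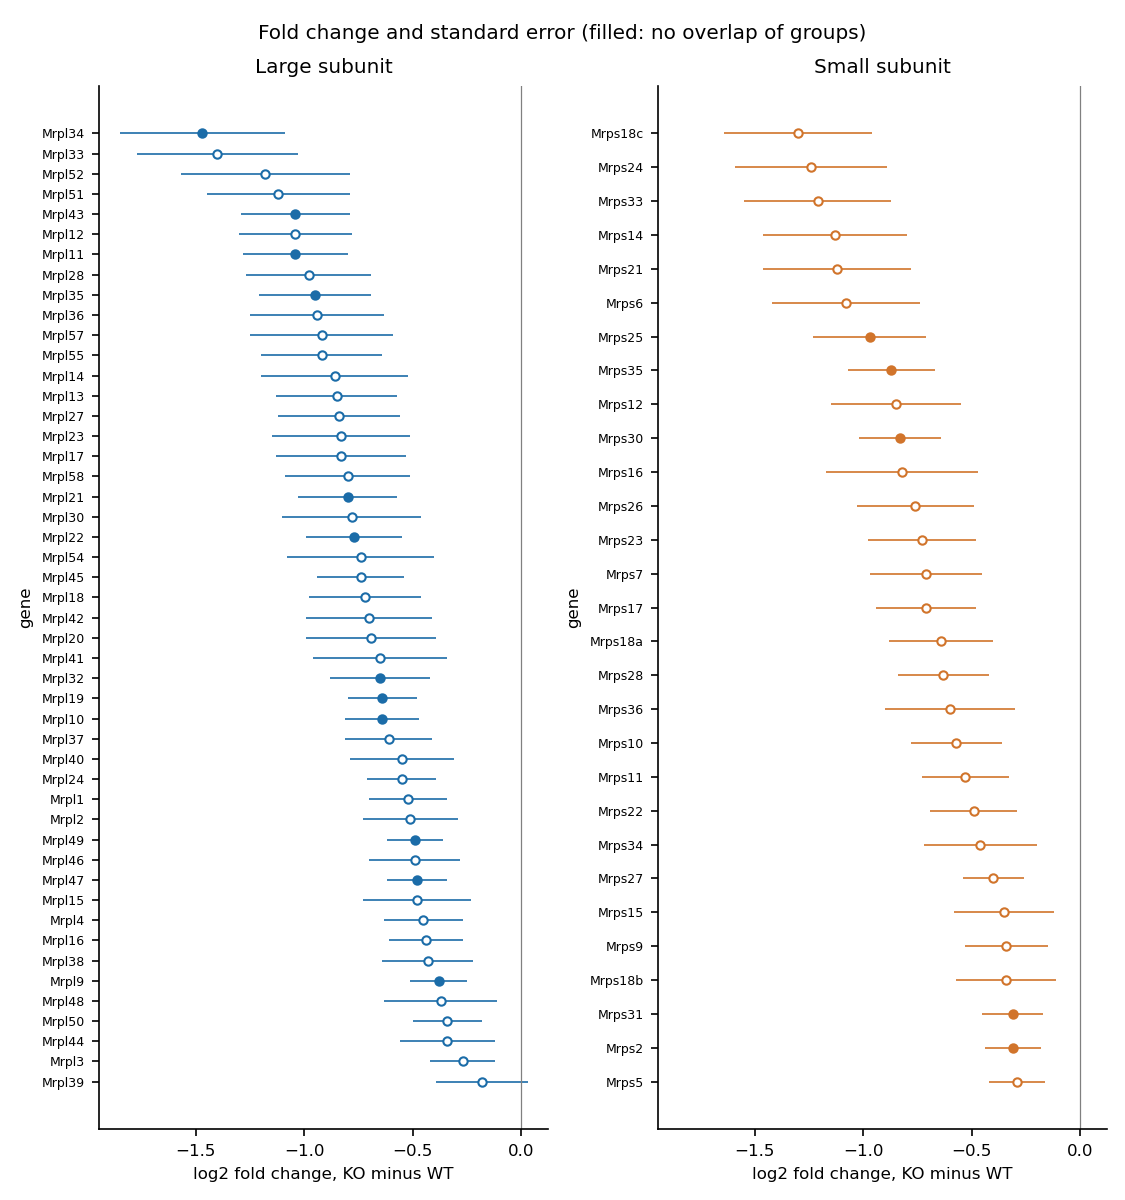
Log2 fold change (x axis, KO minus WT) of each tested member with its standard error, large subunit on the left and small subunit on the right, and filled points where the CPM values of the 2 groups do not overlap. All points lie left of 0, from Mrpl34 at -1.47 to Mrpl39 at -0.18, and 17 are filled.

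Among the proteins of the large subunit, Mrpl11 (chr19:4962147-4966999), at the base of the stalk that recruits translation factors, had 45.2, 48.4 and 51.0 CPM as the lowest, median and highest KO values, and 121, 168, 86.5, 67.5 and 55.2 in WT A to E. The groups did not overlap, and WT E was nearest to the KO tumours. Its log2 fold change was -1.04 (SE 0.24, edgeR adjusted p = 0.081). Mrpl12 (chr11:120484613-120489065), the stalk protein itself, ranged from 62.0 to 84.1 in KO with a median of 65.0 and was 199, 223, 121, 80.6 and 82.3 CPM in WT A to E. Here WT D and WT E fell within the KO range, and the log2 fold change was -1.04 (SE 0.26, edgeR adjusted p = 0.087). Mrpl10, the protein that holds the stalk, was chosen after its values were seen: it had 46.3 to 55.9 CPM in KO and 61.9 to 114 in WT tumours, without overlap, and a fitted log2 change of -0.64 (SE 0.17).

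Mrpl34 (chr8:71464959-71465747), a very short protein of bacterial descent whose gene has the shortest exon length of the large subunit at 607 bases, showed the largest fold change of the family. Its KO values had a minimum of 27.0, a median of 29.1 and a maximum of 31.8 CPM, against 82.1, 191, 63.1, 34.7 and 33.9 in WT A to E. WT D and WT E exceeded the highest KO tumour only by a small margin. The log2 fold change was -1.47 (SE 0.38, edgeR adjusted p = 0.090). Mrpl43 (chr19:45004829-45006442), a protein particular to mitochondria, had 46.0 to 51.2 CPM in KO and 120, 168, 93.7, 62.9 and 55.0 in WT A to E, again without overlap, with a fitted log2 change of -1.04 (SE 0.25, edgeR adjusted p = 0.085). Mrpl19, of bacterial descent, ranged from 25.5 to 32.3 CPM in KO and from 32.9 to 58.4 in WT. Its lowest WT tumour, D, was next to the highest KO tumour, and the log2 fold change was -0.64 (SE 0.16, edgeR adjusted p = 0.086).

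Members at the exit tunnel and with enzymatic or rescue roles came next. Mrpl45, which anchors the ribosome to the inner membrane near the tunnel exit, had 39.0 to 47.7 CPM in KO and 97.2, 103, 73.2, 56.6 and 47.4 in WT A to E, and only WT E overlapped the KO tumours. Its log2 fold change was -0.74 (SE 0.20, edgeR adjusted p = 0.091). Mrpl58, a peptidyl-tRNA hydrolase built into the subunit that releases stalled chains, ranged from 26.5 to 35.2 CPM in KO and from 24.1 to 93.8 in WT, with a fitted log2 change of -0.80 (SE 0.29). Mrpl44, which carries a ribonuclease III fold, lay at 22.1 to 34.3 CPM in KO and at 31.8, 61.7, 37.3, 34.2 and 24.3 in WT A to E. WT B and WT C were above the KO range and the others within it, and its fitted log2 change of -0.34 (SE 0.22) had an unadjusted p of 0.151. Mrpl15, of bacterial descent and with the longest exon length of the subunit at 8487 bases, had a fitted log2 change of -0.48 (SE 0.25) and Mrpl48, a protein added in mitochondria, of -0.37 (SE 0.26), neither under 0.05 even unadjusted.

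Mrpl39 (chr16:84717576-84735742), particular to mitochondria, differed least of all. Its KO values were 35.7 at the lowest, 40.0 at the median and 41.7 CPM at the highest, against 45.1, 71.5, 30.0, 45.8 and 31.5 in WT A to E. WT C and WT E were below every KO tumour and the other WT tumours above. The log2 fold change was -0.18 with an SE of 0.21 and an unadjusted p of 0.393.

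**Figure D3:**
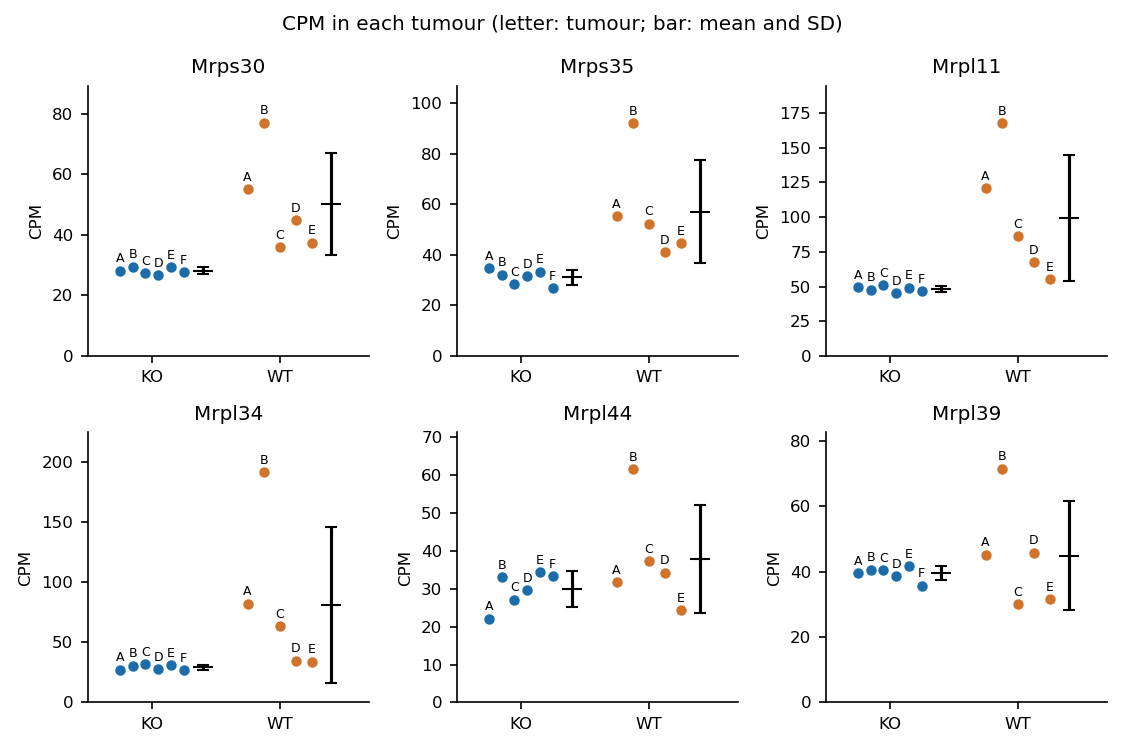
CPM (y axis, from 0) of 6 members in each KO and WT tumour, lettered by tumour, with the mean and SD at the right of each group. Mrps30, Mrps35, Mrpl11 and Mrpl34 do not overlap between groups, Mrpl44 and Mrpl39 do, and WT B is the highest tumour in all 6.

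Among the genes with small-subunit symbols, Mrps35 (chr6:147042764-147073991), a protein particular to mitochondria and the longest gene of the group by exons at 8631 bases, had the smallest p of the family. Its lowest, median and highest KO values were 26.8, 31.8 and 34.6 CPM, and those of WT A to E were 55.4, 92.2, 52.4, 41.2 and 44.6. All WT tumours, D and E included, lay above all KO tumours. The log2 fold change was -0.87 (SE 0.20, edgeR adjusted p = 0.080). Mrps30 (chr13:118378381-118387252), which belongs to the large subunit despite its name, ran from 26.7 to 29.5 CPM in KO and was 55.2, 77.1, 36.0, 44.8 and 37.4 in WT A to E. WT D stood above WT C here, and the log2 fold change was -0.83 (SE 0.19, edgeR adjusted p = 0.080). Mrps25, another protein particular to mitochondria, also did not overlap, with 24.3 to 36.3 CPM in KO, 36.5 to 112 in WT and a fitted log2 change of -0.97 (SE 0.26).

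The 3 members of the Mrps18 group, which descend from a single bacterial protein and sit at different places in the ribosome, had different values. Mrps18c had 9.29 to 13.4 CPM in KO and 43.6, 41.6, 29.2, 13.6 and 10.2 in WT A to E, with a fitted log2 change of -1.30 (SE 0.34, edgeR adjusted p = 0.091). Mrps18a, found in the large subunit, had 50.6 to 61.5 CPM in KO and 45.8 to 136 in WT, and a fitted log2 change of -0.64 (SE 0.24). Mrps18b had 22.4 to 28.1 CPM in KO and 40.0, 45.9, 16.5, 26.4 and 27.1 in WT, with a fitted log2 change of -0.34 (SE 0.23) and an unadjusted p of 0.155. WT C, high for most of the family, was the lowest tumour of all for Mrps18b. A test of the difference between these paralogs was not made.

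Mrps12, at the decoding centre, had 23.2 to 31.6 CPM in KO and 54.9, 82.3, 48.7, 21.2 and 25.4 in WT A to E, so that WT A, B and C stood above and WT D below every KO tumour, and its log2 fold change was -0.85 (SE 0.30, edgeR adjusted p = 0.126). Mrps21, of bacterial descent and the shortest gene of the group by exon length at 739 bases, had 49.3 to 75.5 CPM in KO and 57.3 to 254 in WT, and a fitted log2 change of -1.12 (SE 0.34, edgeR adjusted p = 0.0997). Mrps33, particular to mitochondria, had 19.2 to 23.9 CPM in KO and 112 in WT B beside 23.7 to 44.1 in the other WT tumours, with a fitted log2 change of -1.21 (SE 0.34). The largest p-values of the group belonged to Mrps15, of bacterial descent (log2 fold change -0.35, SE 0.23), Mrps18b and Mrps34 (-0.46, SE 0.26). Mrps36, the dehydrogenase subunit, had at most 26.2 CPM in KO, 76.4 in WT B and 22.4 to 30.2 in the other WT tumours, and a fitted log2 change of -0.60 (SE 0.30, unadjusted p = 0.0635).

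Descent from a bacterial protein was set against recent origin. The 29 large-subunit members with a bacterial homologue had a median fitted log2 change of -0.77 and 27 of them were lower at an unadjusted p under 0.05, against a median of -0.63 and 12 of 18 among those particular to mitochondria. For the small subunit the medians were -0.71 (14 of 16 lower) and -0.73 (8 of 9). Mrpl55, Mrps18a, Mrps18b, Mrps30 and Mrps36 were in neither class. The background is the 15.5% of all tested genes that were lower at this threshold. Without WT A, B and C the medians were -0.09 and 0.03 for the large and -0.01 and -0.32 for the small subunit. These differences were not tested.

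Exon length was set beside the fold change because the libraries differed in their length trend. Over all tested genes with exons up to 1000 bases the median log2 fold change was -0.57 and 35.4% were lower at an unadjusted p under 0.05. The shares of lower genes were 28.2% at 1001 to 2000 bases, 17.6% at 2001 to 4000 and 8.93% at 4001 to 8000, with medians of -0.40, -0.12 and 0.08. Large-subunit members had medians of -0.81 (6 genes), -0.70 (14), -0.62 (14) and -0.74 (12) in the same order, with 5, 13, 11 and 11 of them lower. Small-subunit members had medians of -0.88 (2), -0.96 (8), -0.49 (11) and -0.73 (6), with 2, 6, 9 and 5 lower. Over 8000 bases, where all tested genes had a median of 0.22, the 2 large-subunit members (Mrpl15 and Mrpl48) had a median of -0.43 with 0 lower, and the 2 small-subunit members of -0.72 with 2 lower. Among genes of 4001 to 8000 exon bases, 16 of 18 members were lower. Against the median of the other protein-coding genes in the same of 20 groups by exon length, 46 of 48 large-subunit and 26 of 29 small-subunit members lay lower, with median log2 differences of -0.49 and -0.48.

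With all 11 tumours, coding length tracked the fold change more closely among the members. Coding length is the summed length of all annotated coding exons of a gene. Across the 77 members the Spearman correlation of the log2 fold change was 0.24 with exon length, 0.27 with principal transcript length and 0.70 with coding length. Across all 14139 tested protein-coding genes it was 0.38, 0.49 and 0.44. Without WT A, B and C the signs turned, to -0.21, -0.35 and -0.30 across the members. Across all tested protein-coding genes the values were then -0.18, -0.14 and -0.18. These are descriptions across genes of the same libraries, and genes are not independent. The 26 members with the shortest coding sequences (261 to 513 bases) had a median fitted log2 change of -0.93, the next 26 (531 to 774 bases) of -0.68 and the 25 with the longest (781 to 1368 bases) of -0.48. The shortest held 3 of the 17 members without overlap between groups, and the other classes 7 each. Against other genes of like coding length, 47 of 48 and 28 of 29 members still lay lower, by a median difference of -0.36 for the large and -0.35 for the small subunit, and with principal transcript length 40 of 48 and 19 of 29 did, at -0.28 and -0.32.

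**Figure D4:**
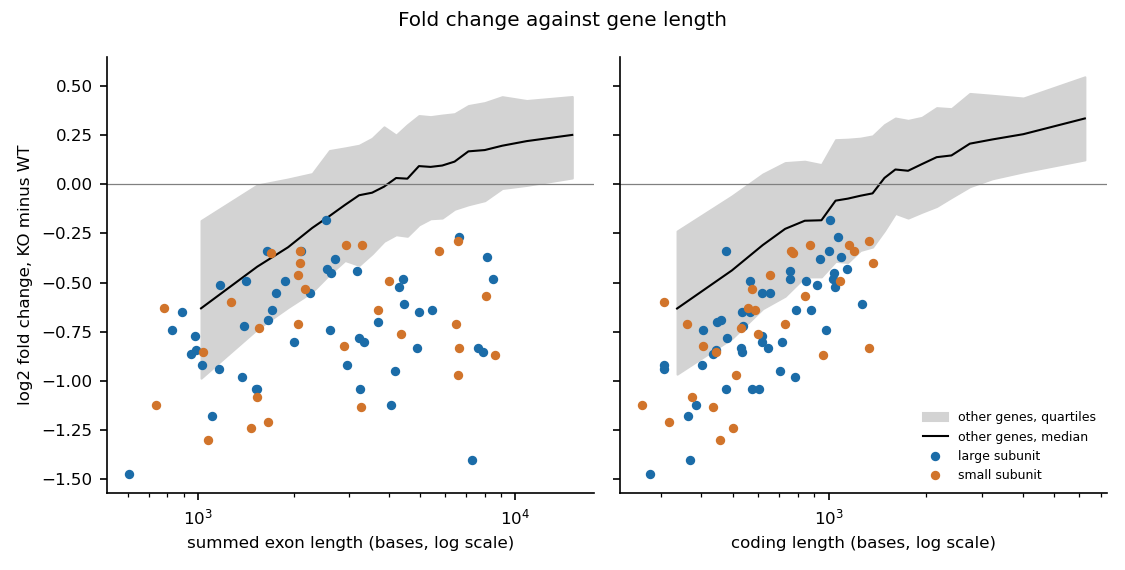
Log2 fold change (y axis, KO minus WT) against summed exon length on the left and coding length on the right (x axes, bases, log scale), for large-subunit and small-subunit members as points and all other tested protein-coding genes as the median (line) and quartiles (band) of equal groups. Of the 77 members, 72 lie below the median of their exon length group and 75 below that of their coding length group.

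When each library's length trend was taken out as an offset, the median fold changes shrank, while some members grew. With the exon length offset Mrpl33 went from -1.40 to -1.73 and Mrps35 from -0.87 to -1.20. With exon length the medians were -0.51 and -0.50 for the large and small subunits. At an unadjusted p under 0.05, 33 and 19 members were lower (13.9% of all genes). Mrpl43 alone passed an adjusted p of 0.05 (log2 fold change -0.63, edgeR adjusted p = 0.048). Over all 16536 tested genes 29 were lower and 68 higher at that adjusted threshold. With principal transcript length, chosen after seeing the data, the medians were -0.29 and -0.28, with 25 and 14 lower (13.4% of all genes). Under this offset 67 of 77 members kept a negative sign, beside 9099 of all 16536 tested genes with a negative sign. Some members grew under it, among them Mrps35 to -1.13 and Mrpl11 to -1.14, and others, such as Mrps34 at 0.16 and Mrps15 at 0.21, turned positive. The ribosomal RNA share, which includes the mitochondrial rRNAs, was also added to the fit. The medians were then -0.37 and -0.35, with 16 and 7 members lower (6.63% of all genes).

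The result rested on WT A, B and C, the libraries with the reversed length trend. Without WT B the medians were -0.47 and -0.42, with 25 and 13 members lower (9.59% of all genes). Without WT A and WT B they were -0.23 and -0.29, with 14 and 7 lower (7.42%). Without WT A, B and C the medians moved to -0.02 and -0.05, near the 0.01 over all genes, with 9 and 6 members lower (9.01% of all genes) and 3 and 1 higher (8.21%). In the other direction, leaving out WT E gave 48 members under an adjusted p of 0.05 in edgeR (7.46% of all genes lower at that threshold) and leaving out WT D gave 27 (3.87%). The part of the length trend and of the ribosomal RNA share in the result was not tested.

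**Figure D5:**
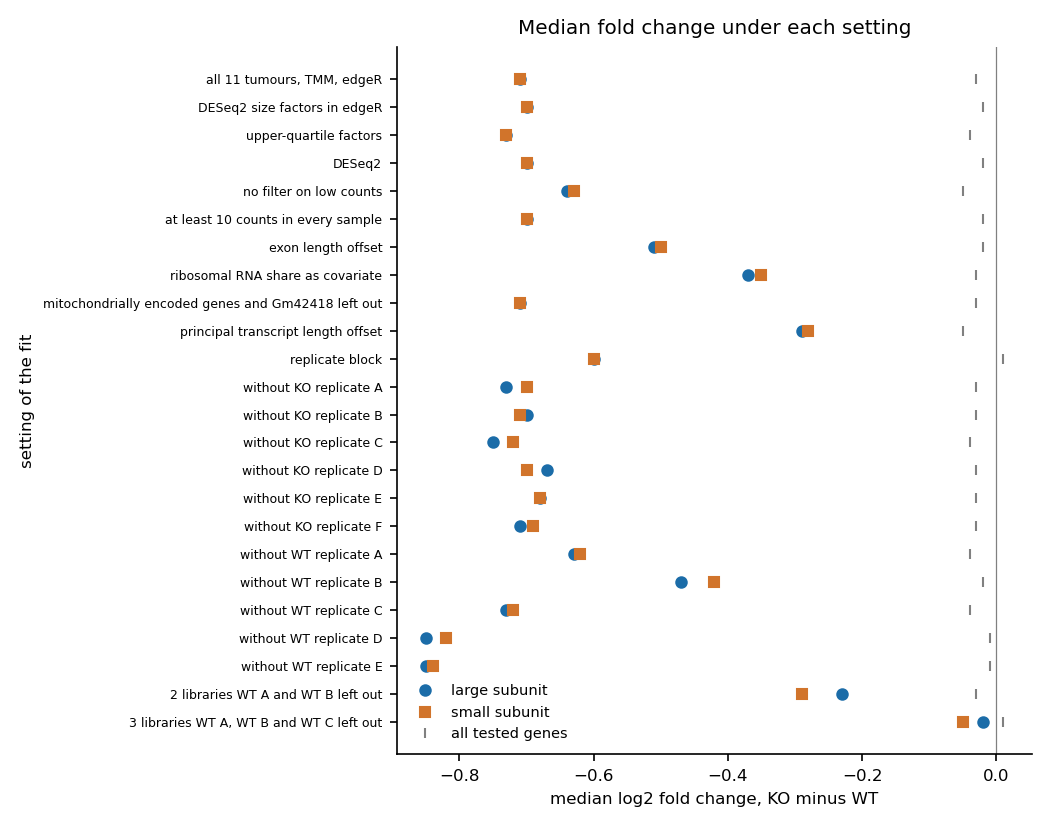
Median log2 fold change (x axis, KO minus WT) of the large-subunit members, the small-subunit members and all tested genes under each setting of the fit (y axis). Both subunits move together, from -0.71 in the fit with all 11 tumours to -0.85 and -0.84 without WT E and to -0.02 and -0.05 without WT A, B and C.

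The comparison of the 6 KO tumours with WT D and WT E alone, whose length trends lay within or close to the KO range, left 15 members lower at an unadjusted p under 0.05, none of them under an adjusted p of 0.05. Of these, 13 were among the 17 without overlap in all 11 tumours. Absence of overlap already requires WT D and WT E to lie above every KO tumour, so this count reuses the same values and is no separate result. Mrps30 had the smallest p, with a fitted log2 change of -0.54 (SE 0.11, edgeR adjusted p = 0.105). It was followed by Mrps27 at -0.43 (SE 0.11), Mrpl49 at -0.39 (SE 0.11), Mrps35 at -0.46 (SE 0.13), Mrpl35 at -0.41 (SE 0.12) and Mrpl11 at -0.34 (SE 0.11). The 4 higher members were Mrps34 at 0.42 (SE 0.14), Mrpl54 at 0.51 (SE 0.18), Mrpl14 at 0.39 (SE 0.15) and Mrpl41 at 0.42 (SE 0.17). Among these 8 tumours 43 of the 77 members had a negative sign, beside 8625 of all 17605 tested genes. The median over the family was -0.04, beside 0.01 over all tested genes.

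The other genes of mitochondrial translation are given by list, and each count is to be read against the 15.5% of all tested genes that were lower at an unadjusted p under 0.05. Of the 4 small-subunit proteins without a family symbol, 3 were lower at an unadjusted p under 0.05, with a list median fitted log2 change of -0.66, and of -0.05 without WT A, B and C. Dap3, a GTP-binding protein, had 71.5 to 91.8 CPM in KO and 98.0 to 139 in WT without overlap, and a fitted log2 change of -0.56 (SE 0.14). Chchd1 was at -0.97 (SE 0.35). Gadd45gip1, of the large subunit, was at -0.78, and at 0.00 without those libraries. Of 25 assembly factors and rRNA-modifying enzymes 12 were lower and none higher, with a median of -0.37 (-0.20 without WT A, B and C), led by Mettl17, an assembly factor, at -0.69 (SE 0.14) and Malsu1, an anti-association factor, at -1.42 (SE 0.30), both without overlap between groups. Of 15 translation factors 3 were lower, a share near that background (median -0.20), with the smallest p-values for Slirp, which binds mitochondrial mRNA, at -1.05 (SE 0.37) and Guf1, the homologue of bacterial LepA, at -0.51 (SE 0.19). Without WT A, B and C the medians were -0.18 for the translation factors and -0.24 for the aminoacyl-tRNA synthetases.

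Among the 20 mitochondrial aminoacyl-tRNA synthetases 5 were lower and none higher, beside the same 15.5% (median -0.26). Lars2, the leucyl-tRNA synthetase, was at 1131, 8416, 1589, 508 and 110 CPM in WT A to E and at 137 to 339 in KO. Its highest value was in WT B, the library with 6.39% ribosomal RNA, and its log2 fold change of -3.60 (SE 0.82) was -2.10 (SE 0.53) without WT B and -0.67 (SE 0.50) without WT A, B and C. Fars2 was at -0.77 (SE 0.21). Of the 6 transcription factors and terminators of mitochondrial DNA only Mterf1a was lower (-0.74, SE 0.31, median of the list -0.21). Among 24 tested import, chaperone and porin genes 16 were lower and none higher (median -0.61, and -0.04 without WT A, B and C), led by the prohibitin Phb2 at -0.86 (SE 0.21) and the import motor subunit Timm44 at -0.62 (SE 0.15). None of the 9 regulators of mitochondrial biogenesis was under 0.05 (median 0.14), with the smallest p for Gabpa, an ETS factor, at 0.36 (SE 0.17), and for Myc at -0.33 (SE 0.19). The proteins of the cytosolic ribosome had a median of -1.0 over 96 tested genes, with 79 lower and 1 higher, and of 0.16 without WT A, B and C.

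The templates of the mitochondrial ribosome were ordered differently among the tumours. The 13 mitochondrially encoded mRNAs summed to 13777 to 18081 CPM in KO tumours and to 9671, 19057, 12243, 17400.1 and 18144 in WT A to E. WT A and C were here the lowest of all tumours. At an unadjusted p under 0.05, 3 of the 12 tested mRNAs were lower and 1 higher, beside 15.5% and 8.57% of all tested genes. The smallest p-values belonged to mt-Co2 at -1.01 (SE 0.25) and mt-Co3 at -1.33 (SE 0.40). These are scarce in the counts, at means of 12.4 and 7.01 CPM in KO, as are mt-Atp6 at 5.38, mt-Nd3 at 0.843 and mt-Nd4l at 0.459, beside 7053 for mt-Co1. The study counted only uniquely aligned reads with a mapping quality above 10. Whether that lowered the counts of these mRNAs was not tested, so the sum may not cover all templates. The mRNA that was higher in KO at this threshold was the abundant mt-Nd5. It was at 1608 ± 183 CPM in KO and 932 ± 593 in WT (SD), with a fitted log2 change of 0.79 (SE 0.36). The median of the 12 tested mRNAs was -0.06, and 0.01 without WT A, B and C. The 2 mitochondrial rRNAs summed to 998 to 2707 CPM in KO tumours, 34638 in WT B and 1034 to 2948 in the other WT tumours, and both were lower (mt-Rnr1 at -2.76, SE 0.82, and mt-Rnr2 at -2.48, SE 0.85). WT B alone was outside the KO range by a wide margin, and without WT A, B and C the median of both rRNAs was 0.36.

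Markers of the cell types that a tumour piece can hold were read beside the family. Their counts at an unadjusted p under 0.05 stand beside 15.5% of all tested genes lower and 8.57% higher. The 7 markers of carcinoma epithelium had a median fitted log2 change of -0.57 with 3 lower, and summed to 2508 to 5035 CPM in KO tumours. In WT A to E they summed to 8139, 3079, 6803, 5799 and 5164 CPM. WT B, with the highest sums of the family, was thus the lowest WT tumour for these markers. The fibroblast list had a median of 0.41 (0 of 7 under 0.05) and the macrophage list of 0.38, with 2 of 5 higher. All 5 B cell markers were higher (median 2.47), with 33.5 to 101 CPM in KO and 6.25 to 30.3 in WT, and 2 of 4 neutrophil markers were (median 1.23). The endothelial list had a median of 0.36 (0 of 4 under 0.05). The T cell (0.08) and cycling-cell (-0.08) lists had medians nearer to 0. Of the acinar list 3 of 6 genes were tested (median -1.96, 1 lower), and of the islet list none passed the filter on low counts. The part of these cell types in the level of the mitochondrial ribosome was not tested.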

How the data were processed

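The authors sequenced total RNA of the 11 tumours with a directional kit. The labels name bcl2fastq 2.19, Trimmomatic, HISAT2 2.1.0, HTSeq 0.11.2 and build mm10. The deposited values are raw read counts per GENCODE M21 gene. A second deposited table, of normalised values, was not used. Groups came from the sample titles, which give a letter per tumour and name no animal, so that p-values measure the spread between these tumours.

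Counts were filtered with filterByExpr, scaled by TMM and tested with edgeR 4.0.16 (quasi-likelihood F test, two-sided, no covariate, R 4.3.3), with Benjamini-Hochberg adjustment over the 16536 genes kept. The script was tested on simulated data. CPM used TMM-scaled library sizes, and log2 values a prior count of 2. The SE is the fold change over the root of F. Exon length is the union of annotated exons. DESeq2 1.42.0, other scalings and filters, length offsets (lowess span 0.3), the ribosomal RNA share as covariate, a replicate block and left-out libraries were alternatives. The members, the gene lists and the tests were chosen with earlier results of these data known. Named genes are, for each subunit, the 5 smallest and 3 largest p-values, the longest, shortest, highest and lowest, and 10 chosen for their role. In the lists, the smallest p-values were named. The floor for a count of 0 is 3 counts and, like every count, covers counting error only. No 2 libraries agreed within sampling noise (lowest chi-square per degree of freedom 35.7).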

Additional observations from a re-analysis of the deposited data

Results flagged for a closer look

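In 60 groups of tumours examined, 6 values stood far from the rest of their group by Dixon's gap, where chance flags about 1 in 20 groups. WT B was far above the other WT tumours in Mrps33 (112 CPM against 23.7 to 44.1), Mrps35 (92.2 against 41.2 to 55.4), Mrps36 (76.4 against 22.4 to 30.2) and the ribosomal RNA share (6.39% against 0.24% to 1.40%). KO A stood apart from the other KO tumours in Mrpl45 (39.0 CPM against 44.5 to 47.7) and in Mrps34 (56.7 against 42.9 to 47.1).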

How the results depend on the processing

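Counts of lower members at an unadjusted p under 0.05 (40 large, 24 small) fell to 16 and 7 with the ribosomal RNA share as covariate, to 25 and 14 with the principal transcript length offset, to 14 and 7 without WT A and WT B and to 9 and 6 without WT A, B and C. Leaving out each tumour in turn gave 25 to 45 and 13 to 27, the lowest without WT B, and medians of -0.85 to -0.47 and -0.84 to -0.42. The number of members under an adjusted p of 0.05 (0 in edgeR, 64 at an unadjusted p under 0.05) was 30 with DESeq2, 1 with the exon length offset, and 0 to 48 without each tumour in turn, 27 without WT D and 48 without WT E. Of all tested genes 6.03% were lower at that adjusted threshold with DESeq2, 3.87% without WT D and 7.46% without WT E. With the exon length offset 29 genes were lower and 68 higher. The medians (-0.71 and -0.71) were -0.29 and -0.28 with the principal transcript length offset, -0.23 and -0.29 without WT A and WT B, and -0.02 and -0.05 without WT A, B and C. The replicate block, with KO F left out, gave 25 and 16 lower members, medians of -0.60 and -0.60 and no adjusted call. The letters belong to different mice and did not pair the tumours (same-letter correlations of -0.135 to 0.118, 1 of 5 letters best with its own). Of 529 values of single named members under the alternatives, 461 kept direction and side of the threshold, 42 passed the adjusted threshold and 26 changed sign. The log2 fold changes that changed sign were, without WT A, B and C, Mrpl15 0.31, Mrpl39 0.03, Mrpl44 0.03, Mrpl48 0.35, Mrpl58 0.13, Mrps12 0.15, Mrps15 0.27, Mrps18a 0.13, Mrps21 0.02, Mrps34 0.42 and Mrps36 0.05; with the ribosomal RNA share as covariate, Mrpl39 0.12, Mrpl44 0.00, Mrpl48 0.05 and Mrps36 0.02; without WT B, Mrpl39 0.05; without WT A and WT B, Mrpl39 0.14, Mrpl48 0.16, Mrps15 0.02, Mrps18b 0.07 and Mrps34 0.04; with the principal transcript length offset, Mrpl44 0.02, Mrps15 0.21, Mrps18b 0.11, Mrps34 0.16 and Mrps36 0.09. Mrpl39 ranged from -0.30 to 0.05 over the tumours left out in turn. The cause was not tested. The DESeq2 size factors, the upper-quartile factors, both other filters and leaving out the mitochondrially encoded genes changed no direction of a named member, and moved none of these counts by more than 1.5 times. The count of 23 members under an adjusted p of 0.1 was 6 with no filter on low counts, 50 with DESeq2, 16 with the principal transcript length offset, 0 with the ribosomal RNA share as covariate or the replicate block, and 0 to 66 without each tumour in turn. Over all tested genes 550 were lower at this threshold in the main fit. That number was 147 with no filter, 1774 with DESeq2 and 509 with the principal transcript length offset. It was 6 with the ribosomal RNA share, 1 with the replicate block and 0 to 2406 without each tumour in turn. With 5 WT tumours of which 3 set the difference, the precision is limited by tumours rather than by counts.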
